A study of Mus musculus with 2 samples.

Results

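The genes described here build the major histocompatibility complex (MHC, called H2 in the mouse) and load it with peptide. The members are the protein-coding genes whose identifiers map to a symbol starting with H2-, together with B2m, Cd74, Ciita, Nlrc5, Tap1, Tap2, Tapbp, Psmb8, Psmb9 and Psmb10. They came to 44 of the 43346 mouse genes in the tables, of which 21474 are protein-coding. Of the 44, 26 belong to class I (24 heavy chain genes, B2m and the regulator Nlrc5), 11 to class II and 6 to peptide processing. H2-Ke6, which carries an H2 name by its position and encodes a dehydrogenase, falls outside the 3 classes. Another 11 genes with an H2- symbol are annotated as pseudogenes of some kind and are not members.

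The RNA came from whole ovaries of adult female C57BL/6J mice, littermates of 8 weeks, with no treatment named, and was measured in 2 sequencing libraries called replicate 1 and replicate 2. The RNA was depleted of ribosomal RNA, carried poly(A) tails and was longer than 200 nucleotides. Although named as biological replicates, both carry one and the same donor record in the labels, so the spread between them, and every test of it, may be technical. Replicate 1 held 41124061 gene counts and replicate 2 held 34930860, of which the members took 0.402% and 0.369%. A gene with 0 counts could still hold up to 3, which is 0.073 CPM (counts scaled to the library total) in replicate 1 and 0.0859 CPM in replicate 2. Intervals and floors cover counting error only. Markers of granulosa cells (6 of 6), of theca, interstitial and luteal cells (6 of 6) and of oocytes (6 of 6) all reached 1 TPM (a level scaled for transcript length) in both libraries.

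MHC class I molecules pair a heavy chain with beta-2-microglobulin and show peptides from inside the cell to CD8 T cells, and nearly all nucleated cells carry them. Peptides are cut by the proteasome, whose catalytic subunits are exchanged for the immunoproteasome's under interferon, pumped into the endoplasmic reticulum by the Tap1-Tap2 transporter and loaded with the help of tapasin. Class II molecules are alpha-beta pairs that travel with the invariant chain Cd74, take up peptides in endosomes and show them to CD4 T cells, mainly on macrophages, dendritic cells and B cells. In the ovary, resident macrophages and other leukocytes are known to lie in the stroma, around follicles and in corpora lutea. In RNA from a whole organ, fewer cells of a type and less RNA per cell cannot be told apart.

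Levels are given as TPM, the abundance of a transcript scaled for its length and to the same total in each library, so levels of different genes can be set side by side. Of the 44 members, 29 (65.9%) reached 1 TPM in both libraries, against 62.0% of all protein-coding genes (13312 of 21474). All 6 processing genes and 10 of the 11 class II genes did so, but only 12 of the 26 class I genes. The median member lay at 16.0 TPM in replicate 1 and 14.2 in replicate 2, where the median protein-coding gene lay at 4.43 and 4.29. Class medians ran from 1.23 and 0.580 TPM in class I through 20.8 and 17.2 in class II to 50.7 and 49.0 in processing. Summed levels gave another order. The class II genes summed to 2047 ± 54.2 TPM, class I to 1739 ± 203 and processing to 428 ± 4.84 (mean ± SD, n = 2 in each case). The class II sum includes the invariant chain Cd74, with a mean of 831 TPM. Between chains of the MHC itself, the class I heavy chains summed to 1.43 and 1.13 times H2-Aa, H2-Ab1 and H2-Eb1 in replicates 1 and 2.

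**Figure D1:**
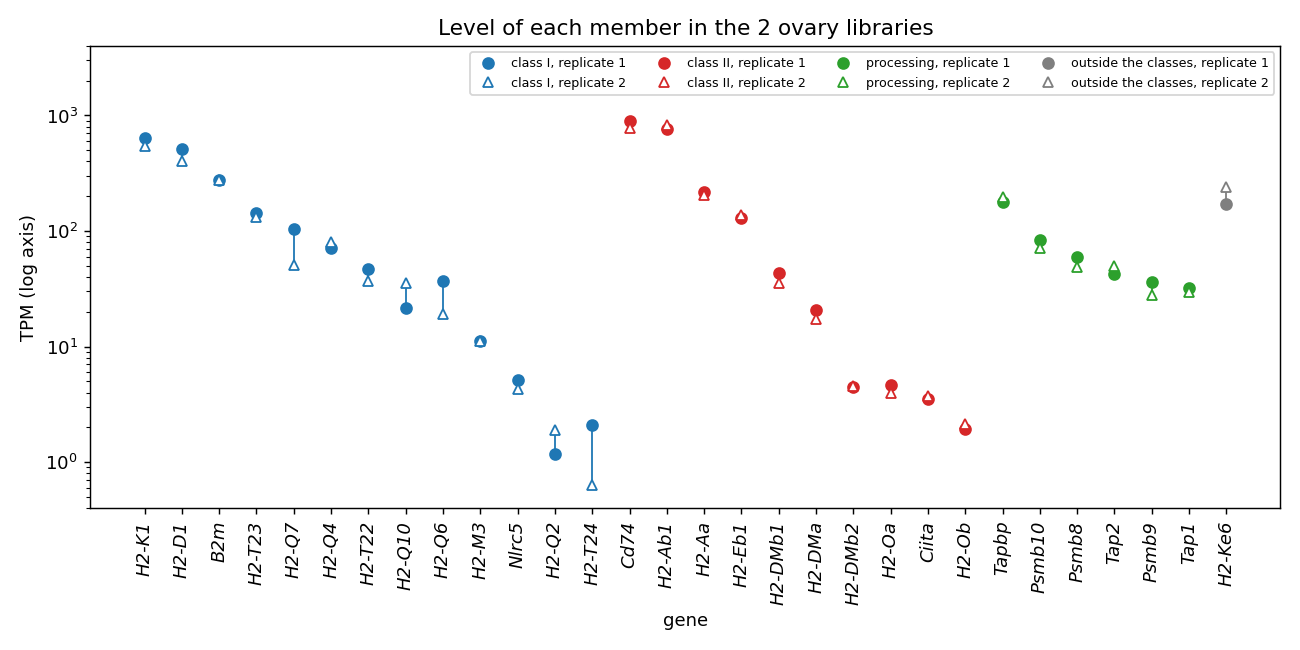
TPM on a log axis of the 30 members with a mean of at least 1 TPM, by class, with a filled circle for replicate 1 and an open triangle for replicate 2. Cd74, H2-Ab1, H2-K1 and H2-D1 stand highest, and the widest gaps between the libraries are those of H2-Q7, H2-Q6, H2-Q10 and H2-T24.

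With 1 group of samples, the only comparison open was of replicate 2 with replicate 1. It used counts scaled for library size by TMM (a trimmed mean of gene ratios), and a gene is called higher or lower where the difference went beyond counting noise at a Benjamini-Hochberg adjusted p of 0.05 in a two-sided exact binomial test over the 15939 genes whose counts averaged 20 or more. Such a call compares the reads of these libraries and not of conditions. It was common: 56.1% of all genes tested were called, 29.1% higher and 27.0% lower in replicate 2. Of the 44 members, 31 had enough counts, and 21 of those (67.7%) were called, 9 higher and 12 lower. Their median log2 ratio of replicate 2 over replicate 1 was -0.08, where that of all genes tested was -0.01 and the median size of a difference over all genes was 0.23. Only 2 members, H2-Q6 and H2-T24, passed a 2-fold difference, which 3.99% of all genes did. Scaling by the spike-in RNAs instead moved the median of all genes to -0.44 and the split of the members to 1 higher and 27 lower. The ratio of 10 members then turned from positive to negative, those of B2m, H2-Q4, H2-M3, H2-Ab1, H2-Eb1, H2-DMb2, Ciita, Tapbp, Tap2 and H2-Ke6. Directions below are therefore relative to the bulk of genes.

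**Figure D2:**
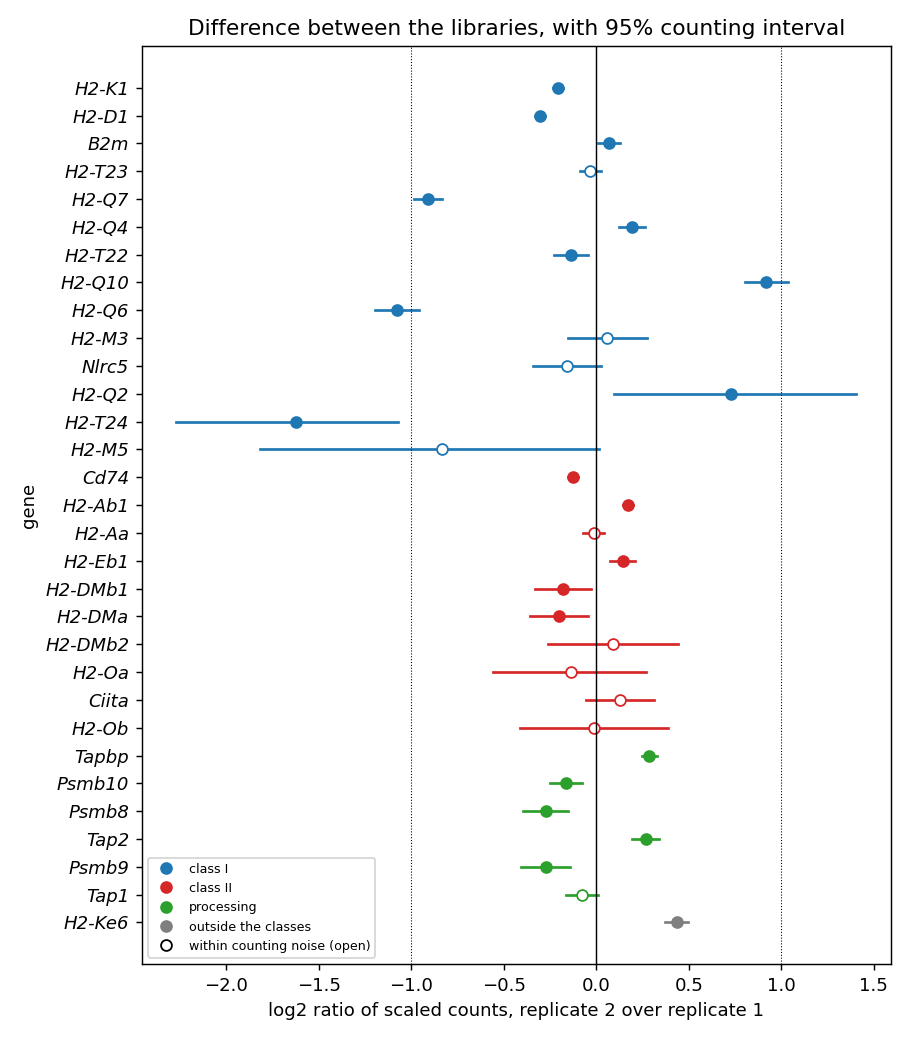
Log2 ratio of scaled counts, replicate 2 over replicate 1, of the 31 members whose counts averaged 20 or more, with the exact 95% counting interval as a bar; filled points were called, open points were not, and dotted lines mark 2-fold. H2-Q6, H2-Q7 and H2-T24 lie far to the left and H2-Q10 far to the right, while the class II and processing genes stay between -0.27 and 0.29.

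The classical heavy chains, which present peptide to CD8 T cells, made up most of the class I heavy chain RNA. H2-K1 stood at 643 TPM in replicate 1 and 541 in replicate 2, rank 181 among protein-coding genes by mean TPM. H2-D1 stood at 517 and 403 TPM, rank 248. H2-K1 was the higher of the pair in each library, by 1.24 and 1.34 times. Both were lower in replicate 2, by a log2 ratio of -0.21 (-0.23 to -0.18) for H2-K1 and -0.30 (-0.33 to -0.28) for H2-D1. Of the summed TPM of all 24 heavy chain genes, the pair held 72.5% in replicate 1 and 71.8% in replicate 2, a share that moved far less than the levels. On build mm10 (GRCm38), H2-K1 spans chr17:33996017-34000347 on the minus strand and H2-D1 chr17:35262730-35267499 on the plus strand.

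The promoters of the members on which the results turn are printed here because they are read by known regulators of the pathway. MHC promoters are known for an X box, bound by the RFX complex, a Y box, bound by NF-Y, and, in class I genes, sites for interferon regulatory factors and NF-kappaB. Each sequence runs from 250 bases before the start of the gene, as RefSeq gives it, to 10 after it. It is printed 5′ to 3′ on the gene's strand, from RefSeq's promoter table for GRCm38.p6. Promoters of 37 of the 44 members were searched, and those of the other 7 were not. For H2-K1 and Tap1 the start used lies a few bases inside the span of the GENCODE gene. Capitals mark matches, on either strand, to the letters CCNAGNNAC (an X box core), CTGATTGG (a Y box core), GAANNGAAA (an interferon response core) and GGGNNTTCC (an NF-kappaB core), where N is any base. H2-K1 is shown as the most abundant heavy chain, H2-Q7 and H2-Q10 as neighbours that differed in opposite directions between the libraries, H2-Aa for class II and Tap1 for processing.
H2-K1 (chr17:34000324-34000583, minus strand): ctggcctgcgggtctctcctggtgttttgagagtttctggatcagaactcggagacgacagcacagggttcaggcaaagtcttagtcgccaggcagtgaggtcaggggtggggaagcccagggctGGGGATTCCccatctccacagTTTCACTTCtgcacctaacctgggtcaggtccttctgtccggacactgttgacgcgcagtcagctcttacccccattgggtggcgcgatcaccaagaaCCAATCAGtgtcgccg
H2-Q7 (chr17:35438905-35439164, plus strand): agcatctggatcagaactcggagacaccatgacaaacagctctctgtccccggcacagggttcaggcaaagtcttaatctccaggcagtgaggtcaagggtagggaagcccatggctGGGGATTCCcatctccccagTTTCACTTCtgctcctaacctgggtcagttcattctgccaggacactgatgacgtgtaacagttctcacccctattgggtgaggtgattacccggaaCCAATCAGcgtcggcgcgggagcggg
H2-Q10 (chr17:35469839-35470098, plus strand): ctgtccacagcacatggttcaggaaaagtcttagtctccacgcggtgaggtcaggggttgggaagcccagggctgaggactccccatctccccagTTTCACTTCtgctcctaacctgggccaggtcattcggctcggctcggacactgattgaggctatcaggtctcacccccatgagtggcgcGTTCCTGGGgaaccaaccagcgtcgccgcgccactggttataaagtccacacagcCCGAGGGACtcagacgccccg
H2-Aa (chr17:34287814-34288073, minus strand): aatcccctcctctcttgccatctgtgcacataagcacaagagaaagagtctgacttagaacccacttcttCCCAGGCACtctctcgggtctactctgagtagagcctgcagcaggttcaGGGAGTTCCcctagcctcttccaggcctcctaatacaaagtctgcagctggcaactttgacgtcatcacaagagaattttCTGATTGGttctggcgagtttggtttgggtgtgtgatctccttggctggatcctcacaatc
Tap1 (chr17:34187306-34187565, plus strand): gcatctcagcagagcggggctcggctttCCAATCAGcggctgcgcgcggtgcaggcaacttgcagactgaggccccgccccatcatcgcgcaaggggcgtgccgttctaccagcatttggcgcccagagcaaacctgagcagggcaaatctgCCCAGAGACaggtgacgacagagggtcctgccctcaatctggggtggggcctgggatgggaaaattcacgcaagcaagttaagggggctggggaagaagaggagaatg
H2-K1 and H2-Q7 carried the NF-kappaB, interferon and Y box cores in the same order, and H2-Q10 matched the interferon core but neither the NF-kappaB nor the Y box core. H2-Q10 also matched the X box core, 66 and 11 bases before its start, which H2-K1 and H2-Q7 did not. Over full windows of 300 bases, the Y box core occurred in 19 of the 37 member genes and in 4.10% of all 32851 promoters in the table. A member gene counts where any of its windows matched, and 3 genes had several, while the share of all promoters is per window. The interferon core occurred in 8 of the 37, all of them class I, against 7.52% of all promoters. The NF-kappaB core occurred in 8 of the 37 against 5.82%, and the X box core in 14 of the 37 against 17.3%. By class, the X box core was found in 5 of 8 class II, 6 of 23 class I and 2 of 5 processing genes. The class II genes Cd74, H2-Ab1 and Ciita were not searched and are not in these counts. The Tap1 and Psmb9 windows overlap on opposite strands, so their matches are the same bases. A match says only that these letters are present, and its absence says nothing about binding.

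B2m, the light chain that every class I heavy chain needs to reach the surface, stood at 279 TPM in replicate 1 and 276 in replicate 2. Its difference on scaled counts was a log2 ratio of 0.07 (0.01 to 0.13), called higher, and this call ended when genes with few counts were kept in. Heavy chain RNA summed to 5.73 times that of B2m in replicate 1 and 4.77 times in replicate 2. Nlrc5, the transactivator of class I genes, was at 5.10 and 4.28 TPM, and its log2 ratio of -0.16 was not called.

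The H2-Q genes encode the Qa-type class I proteins, and H2-Q6, H2-Q7 and H2-Q10 differed more between the libraries than any other member tested except H2-T24. H2-Q7, whose product Qa-2 is known as a surface protein anchored by a lipid, was at 103 TPM in replicate 1 and 50.6 in replicate 2. Its neighbour H2-Q6 was at 36.7 and 19.3 TPM. H2-Q10, known as a secreted class I protein of liver, was at 21.5 and 35.8 TPM, the opposite order. The 3 genes lie within a short stretch of chromosome 17 on the plus strand, H2-Q6 at chr17:35424850-35430055, H2-Q7 at chr17:35439155-35443773 and H2-Q10 at chr17:35470089-35474563. On scaled counts the log2 ratio was -0.91 (-0.99 to -0.83) for H2-Q7 and -1.08 (-1.20 to -0.96) for H2-Q6, both lower, and 0.92 (0.80 to 1.03) for H2-Q10, higher. The ratio of H2-Q7 to H2-Q6 stayed near its value, at 2.82 and 2.62 times, so these neighbours differed between the libraries by similar factors. H2-Q4, which encodes the Qb-1 protein, was at 71.8 and 81.0 TPM, a log2 ratio of 0.19, called higher. H2-Q2 was near the edge of detection at 1.18 and 1.91 TPM on 36 and 49 counts, and its call as higher ended when genes with few counts were kept in.

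The H2-Q genes are near copies of each other, and reads that fit several of them are divided by the quantifier. Of all stretches of 76 bases, the read length, in the annotated transcripts of H2-Q7, 16.7% also occurred in another gene. H2-Q7 shared most with H2-Q10, at 8.72%. The share found in another gene was 17.4% for H2-Q6, most of it with H2-Q7. For H2-Q10 it was 12.3%, most of it also with H2-Q7 (8.91%). The deposited posterior SD of the count was small by comparison, 6.10 counts of 4414 for H2-Q7 in replicate 1 and 5.35 of 2015 for H2-Q6. Sums over near copies do not depend on how shared reads were divided within the sum. H2-Q6 and H2-Q7 together kept a log2 ratio of -0.96, the sum with H2-Q10 had -0.52, and all H2-Q members together had -0.25.

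**Figure D3:**
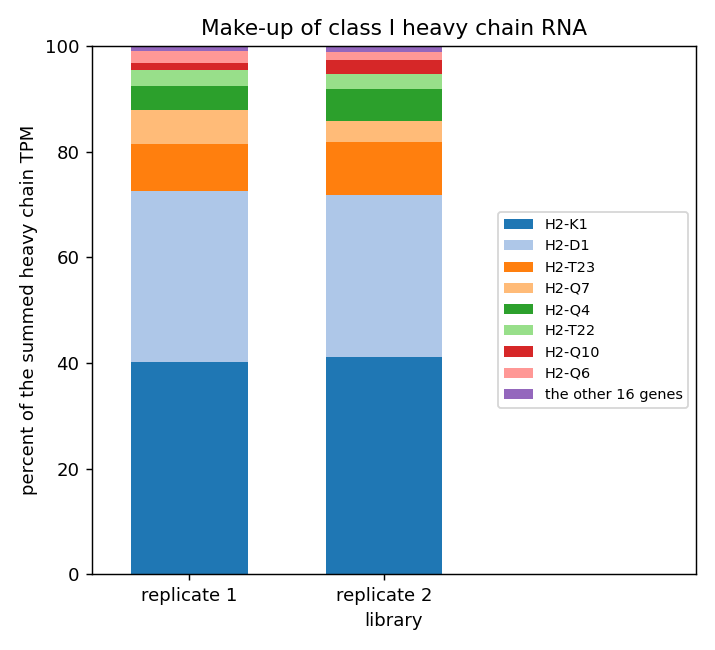
Percent of the summed TPM of the 24 class I heavy chain genes held by each of the 8 highest and by the other 16, for each library. H2-K1 and H2-D1 take 72.5% in replicate 1 and 71.8% in replicate 2, while H2-Q7 takes 6.47% and 3.85% and H2-Q10 takes 1.34% and 2.72%.

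H2-T23, which encodes Qa-1, the ligand of an inhibitory receptor on natural killer cells, was the third heavy chain in level. It stood at 143 TPM in replicate 1 and 133 in replicate 2, and its log2 ratio of -0.03 (-0.09 to 0.02) was not called. H2-T22, one of the class I-like proteins that gamma-delta T cells can recognise, was at 47.0 and 36.9 TPM and was called lower, with a log2 ratio of -0.14. H2-T22 shares 17.9% of its 76-base stretches with other genes, mostly H2-T10, which is annotated as a polymorphic pseudogene and was at 3.31 and 2.45 TPM. H2-T24 was at 2.08 and 0.640 TPM, on 120 and 31 counts, and was called lower. Its log2 ratio of -1.63 (-2.27 to -1.07) was the largest difference of any member tested. H2-M3, which presents formylated peptides of bacteria and mitochondria, was level at 11.2 TPM in both libraries. H2-M5, at 1.28 and 0.520 TPM, had a mean below 1 TPM and was not called.

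The remaining heavy chain genes were close to or at 0. H2-M2, H2-T3 and H2-Q1 lay between 0.0300 and 0.190 TPM, with at most 5 counts in a library. Another 9 genes had 0 counts in both libraries, namely H2-M1, H2-M9, H2-M11 and the 6 H2-M10 genes, a group known for expression beside pheromone receptors in the vomeronasal organ. In mean level, neighbouring heavy chain genes were not always distinct. H2-Q7 stood above H2-Q4 in replicate 1 and below it in replicate 2. The same held for H2-Q6 and H2-Q10, with means of 28.0 ± 12.3 and 28.7 ± 10.1 TPM (SD, n = 2).

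In class II, the invariant chain and 1 surface chain, H2-Ab1, were among the most abundant RNAs of the ovary. Cd74, the invariant chain that keeps the groove of class II blocked until the endosome, was at 887 TPM in replicate 1 and 775 in replicate 2, rank 124 among protein-coding genes. H2-Ab1, the beta chain of I-A, was at 772 and 824 TPM, rank 131. These 2 genes changed places between the libraries. Cd74 was called lower, with a log2 ratio of -0.12 (-0.15 to -0.10), and H2-Ab1 higher, at 0.17 (0.14 to 0.20). H2-Aa, the alpha chain that pairs with H2-Ab1, was at 217 and 205 TPM, rank 749, and its log2 ratio of -0.01 (-0.07 to 0.04) was not called. The beta chain RNA thus stood at 3.56 and 4.02 times that of its alpha partner. Cd74 stood at 0.793 and 0.664 times the sum of H2-Aa, H2-Ab1 and H2-Eb1.

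H2-Eb1, the beta chain of I-E, was at 131 and 138 TPM, rank 1236, called higher with a log2 ratio of 0.14. C57BL/6 mice are known to lack the alpha chain of I-E because of a defect in its gene, and the annotation lists that gene as a polymorphic pseudogene, H2-Ea-ps, which had 0 counts in both libraries. H2-Eb2 had 0.0300 and 0.100 TPM and was not tested. H2-Aa, H2-Ab1 and H2-Eb1 summed gave a log2 ratio of 0.13 (0.11 to 0.16) and all class II genes summed gave 0.02 (-0.00 to 0.03).

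H2-DM is the chaperone that exchanges the invariant chain fragment for peptide, and H2-O is its inhibitor. H2-DMb1 was at 43.0 and 35.5 TPM and H2-DMa at 20.8 and 17.2 TPM, and both were called lower, with log2 ratios of -0.18 and -0.20. H2-DMb2 was at 4.43 and 4.56 TPM, so that H2-DMb1 held 9.71 and 7.79 times as much RNA. Within H2-DMb1, however, the protein-coding form H2-DMb1-201 held 13.05 and 11.14 TPM, less than H2-DMa, and a processed transcript held the rest. The DM beta genes overlap in sequence by 15.7% of the 76-base stretches of H2-DMb1. The H2-O chains were lower in level than H2-DMa and H2-DMb1, with H2-Oa at 4.62 and 3.99 TPM and H2-Ob at 1.93 and 2.14 TPM. H2-DMa stood at 4.51 and 4.31 times H2-Oa. Ciita, the transactivator on which class II transcription depends, was at 3.51 and 3.72 TPM. None of H2-DMb2, H2-Oa, H2-Ob and Ciita was called.

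Cd74 is made in forms that differ in a thyroglobulin-type domain, known from the p41 form, which inhibits cathepsins. Transcript Cd74-201 held 70.8% of the gene's TPM in replicate 1 and 67.9% in replicate 2. Transcript Cd74-202 held 28.9% and 32.1%. Cd74-202 has 9 exons where Cd74-201 has 8, and its extra exon of 192 bases equals 64 codons.

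The processing genes were all well above 1 TPM, and their log2 ratios lay between -0.27 and 0.29. Of the 6, 5 were called (83.3%, against 56.1% of all genes tested). Tapbp, which encodes tapasin, the bridge between class I and the transporter, was the highest at 179 TPM in replicate 1 and 198 in replicate 2, called higher with a log2 ratio of 0.29. Tap2 was at 42.3 and 49.5 TPM, of which its leading protein-coding form, Tap2-201, held 5.80 and 7.11 TPM. Tap2 was called higher with a log2 ratio of 0.27. Its partner in the transporter, Tap1, was at 32.0 and 29.6 TPM and was not called, at -0.08 (-0.17 to 0.01). The 3 immunoproteasome subunits went the other way. Psmb10 was at 83.0 and 71.0 TPM, Psmb8 at 59.1 and 48.5 TPM and Psmb9 at 36.3 and 27.8 TPM. All 3 were called lower, with log2 ratios of -0.16, -0.27 and -0.27.

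Each immunoproteasome subunit takes the place of a constitutive one, and the constitutive genes were lower in replicate 2 as well. Psmb5, the counterpart of Psmb8, was at 273 and 187 TPM, with a log2 ratio of -0.46. Psmb6, the counterpart of Psmb9, was at 407 and 305 TPM, with a log2 ratio of -0.32. Psmb7, the counterpart of Psmb10, was at 78.7 and 57.5 TPM, with a log2 ratio of -0.43. Of the RNA of each pair, the immunoproteasome gene held 17.8% and 20.6% for Psmb8, 8.18% and 8.37% for Psmb9, and 51.3% and 55.3% for Psmb10. Over the 3 pairs, the immunoproteasome share was 19.0% in replicate 1 and 21.2% in replicate 2 (20.1% ± 1.49, SD, n = 2). Psmb10 alone was on a level with its counterpart.

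**Figure D4:**
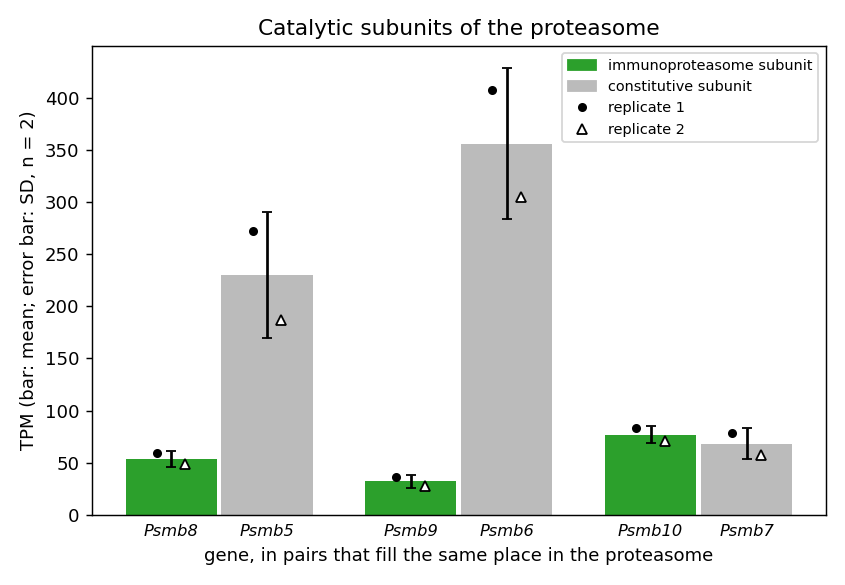
TPM of the catalytic proteasome subunits in pairs, immunoproteasome in green and constitutive in grey; bars are means, error bars are SD (n = 2), circles are replicate 1 and triangles replicate 2. Psmb5 and Psmb6 stand far above Psmb8 and Psmb9, while Psmb10 and Psmb7 are close together.

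Members with several annotated transcripts mostly kept the same leading form. Of the 23 members that had 2 or more transcripts and averaged 100 counts or more, 22 had the same top transcript in both libraries. In 20 of those its share of the gene's TPM moved by 20 points or less. H2-T22 changed its top transcript from H2-T22-201, with 39.0% in replicate 1 and 27.9% in replicate 2, to H2-T22-204, a form with a retained intron, with 18.5% and 31.8%. H2-Q6-202 held 100% of H2-Q6 in replicate 1 and 77.9% in replicate 2, and H2-Ob-201 held 79.2% and 52.8% of H2-Ob. Transcripts that do not code for protein led for Tap2, where the retained intron form Tap2-202 held 85.6% and 84.1%, and for H2-DMb1, where the processed transcript H2-DMb1-203 held 69.7% and 68.7%. Those last 2 genes are named because of their values.

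On chromosome 17, 39 of the 44 members lie between 33915899 and 37483552. The processing and class II genes with Tapbp, H2-K1 and H2-Ke6 fill the first stretch, H2-D1 and the H2-Q genes follow, then the H2-T genes, and the genes with 0 counts lie in the H2-M stretch beyond, where H2-M3 was the highest. H2-Ke6 was at 173 and 239 TPM, called higher with a log2 ratio of 0.43, but 65.3% of its 76-base stretches are shared with the overlapping gene Gm20427. The same interval holds 142 other protein-coding genes, of which 90 reached 1 TPM in both libraries. Of the 93 tested, 64.5% were called (34 higher and 26 lower), with a median log2 ratio of -0.02. Of the 26 members tested there, 69.2% were called (8 higher and 10 lower), with a median of -0.06. Over all genes tested, 56.1% were called. Among the H2- genes annotated as pseudogenes, 4 of 11 reached 1 TPM in both libraries, the highest being H2-Q5 at 9.11 and 7.25 TPM, and 6 had 0 counts in both.

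**Figure D5:**
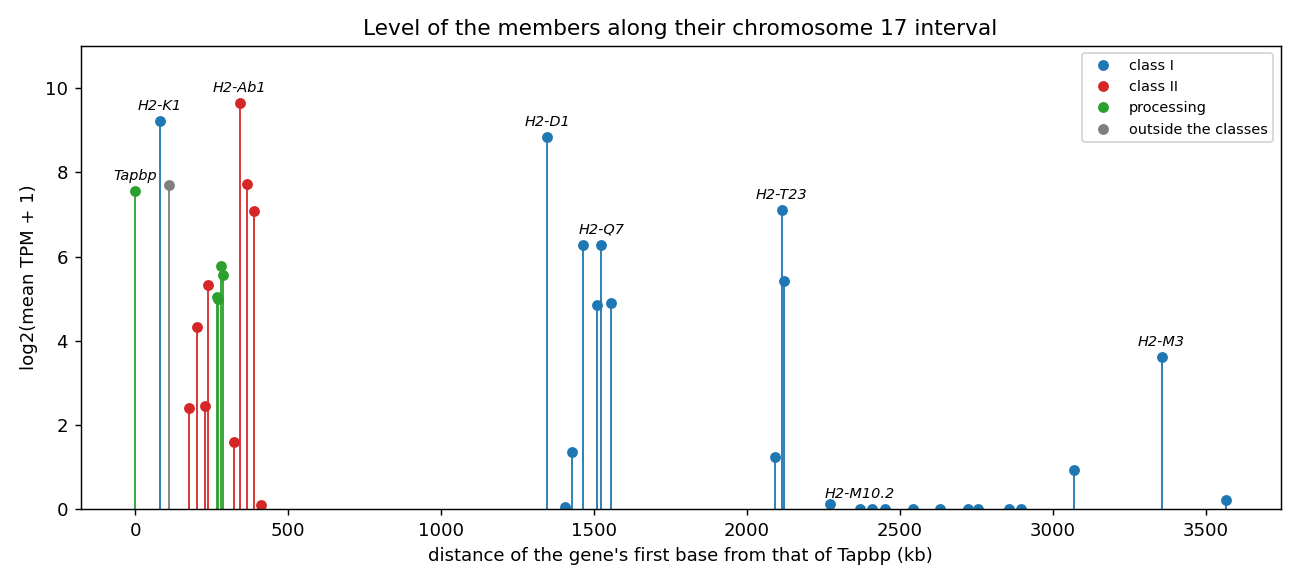
Log2 of mean TPM plus 1 for the 39 members on chromosome 17, against the distance in kilobases of each gene's first base from that of Tapbp, coloured by class. High levels are found in the first and middle stretches, and 9 class I genes at the H2-M end sit at 0.

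By class, the called members were 4 higher and 6 lower of 14 tested in class I, 2 higher and 3 lower of 10 in class II, and 2 higher and 3 lower of 6 in processing. The called share was 71.4%, 50% and 83.3% in that order, against 56.1% of all genes tested, and each class holds few genes. The median log2 ratios were -0.15, -0.01 and -0.12. The heavy chains summed gave -0.23 (-0.25 to -0.22), the processing genes summed gave 0.13, and all members summed gave -0.06.

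Other genes of the pathway, listed by function, were read beside the members. Of 58 such genes, 55 were tested, and 12 were higher and 29 lower, around a median log2 ratio of -0.16. Their called share was 74.5%, against 56.1% of all genes tested (29.1% higher and 27.0% lower). Of the 10 genes of peptide loading and trimming, 2 were higher and 8 lower (100% called, against 56.1% of all genes tested). The higher ones were the chaperones Pdia3, at 1929 and 3322 TPM, and Hspa5, at 1038 and 2481 TPM, with log2 ratios of 0.47 and 0.72 on counts. Their TPM moved further than their counts. Sec61a1, a channel of the endoplasmic reticulum, was at 403 and 360 TPM and was called lower, at -0.13. It held more counts than either chaperone, at 33966 and 25149, against 18407 and 20671 for Pdia3 and 18560 and 24766 for Hspa5. The order by TPM was thus not that by counts, and the reason was not tested. In the class II compartment, 4 of 9 genes were higher and 3 lower (77.8% called), with a median of 0.07. The highest were the proteases Ctsd, at 822 and 776 TPM, Lgmn, at 318 and 359 TPM, and Ctsb, at 334 and 311 TPM.

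Regulators of MHC transcription gave 3 higher and 6 lower of 12 (75% called, against 56.1% of all genes tested), with a median log2 ratio of -0.14. The highest of them were 2 subunits of NF-Y, which binds the Y box, Nfyc at 378 and 235 TPM and Nfya at 195 and 153 TPM. Both were called lower. Of 12 genes induced by interferon, 0 were higher and 6 lower, with a median of -0.23. That is 50% called, below the share of all genes tested. They were led in level by Irf7 at 72.3 and 55.9 TPM, Gbp3 at 25.0 and 20.3 TPM and Isg15 at 18.3 and 10.9 TPM. Irf7 and Isg15 were called lower and Gbp3 was not called. The receptor and kinases for interferon gamma gave 3 higher and 1 lower of 4 tested (100% called, against 56.1% of all genes tested). Ifng itself had 1 count in replicate 1 and 0 in replicate 2. Among 7 class I-like genes without an H2 name, 5 were tested, of which 0 were higher and 2 lower (40% called). Fcgrt, the neonatal receptor for antibodies, was the highest at 115 and 114 TPM.

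Markers of the cells that could carry these genes were measured in the same libraries, and their part in the differences was not tested. All 10 macrophage markers reached 1 TPM in both libraries, and their sum was 742 TPM in replicate 1 and 591 in replicate 2. Of these 10, 5 were lower and 0 higher, around a median log2 ratio of -0.22. That is 50% called, against 56.1% of all genes tested. The highest were C1qc at 190 and 176 TPM, which was not called, and Lyz2 at 213 and 134 TPM and C1qb at 158 and 122 TPM, both called lower. Dendritic cell markers summed to 35.0 and 41.4 TPM, with 6 of 10 at 1 TPM or more in both libraries. Of these 10, 2 were higher and 0 lower, which is 20% called. Markers of all leukocytes (Ptprc, Laptm5 and Coro1a) summed to 159 and 158 TPM. Within this sum Laptm5 was called lower (log2 ratio -0.29), Coro1a was called higher (0.45) and Ptprc was not called. Markers of B cells summed to 4.07 and 3.88 TPM, with 2 of 6 at 1 TPM or more in both libraries, and those of T and NK cells to 2.68 and 2.96 TPM, with 1 of 8. Neutrophil markers summed to 0.960 and 0.730 TPM with S100a9 at 0. The endothelial markers, another source of class I RNA, summed to 165 and 163 TPM, with 1 of 5 higher and 2 lower (60% called). Epithelial markers of the ovarian surface and oviduct summed to 1199 and 1323 TPM. Of these 6, 5 were higher and 1 lower in replicate 2 (100% called, against 56.1% of all genes tested).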

How the data were processed

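Per the file headers and notes deposited with them, the tables are on build mm10 with GENCODE M4. Aligner and quantifier: not given in the sources used here. Deposited by the authors were expected counts (estimated read pairs per gene), TPM, posterior mean versions of both, a posterior SD of the count (a score of uncertainty), signal bounds of TPM (not printed) and each transcript's percent of its gene's TPM. Symbols and coordinates came from GENCODE M21, also on mm10, which matched 42462 of 43346 identifiers after versions were removed. Tables on mm9 were not used here.

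Expected counts were rounded. Library sizes were scaled by TMM (edgeR 4.0.16 in R 4.3.3). Genes averaging 20 counts or more were compared by a two-sided exact binomial test (scipy 1.17.1) with Benjamini-Hochberg adjustment over all of them, at a threshold of 0.05. A prior count of 1 entered log2 ratios, and intervals are exact 95% Clopper-Pearson intervals. A quasi-likelihood fit in edgeR has no residual degrees of freedom here. Spike-ins, at 0.764% and 0.986% of counts, were left out of library sizes.

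Members and lists were chosen with earlier results of these data known. Named were every member with a mean of at least 1 TPM, at most the 3 highest genes of each list, the constitutive proteasome subunits, and transcript forms of Cd74 and of members whose top form changed or moved by over 20 points. H2-M5, Ifng, S100a9, members near 0 and pseudogenes were named besides, and 1 listed gene is not reported here. Alternatives were DESeq2 1.42.0 size factors, spike-in scaling, other count and TPM minimums, posterior means, a prior count of 5, Bonferroni adjustment and leaving out each library.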

Additional observations from a re-analysis of the deposited data

How the results depend on the processing

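Scaling by spike-ins changed most. It gave 1 member higher and 27 lower, and class medians of -0.58 for class I, -0.45 for class II and -0.55 for processing. Of the 31 members tested, 10 then changed sign, to log2 ratios of -0.37 for B2m, -0.24 for H2-Q4, -0.37 for H2-M3, -0.26 for H2-Ab1, -0.29 for H2-Eb1, -0.34 for H2-DMb2 (called under neither scaling), -0.31 for Ciita, -0.15 for Tapbp, -0.17 for Tap2 and -1.6e-05 for H2-Ke6. With no filter on counts, 35 members were tested, the class I median was -0.041, and the calls of B2m and H2-Q2 ended, as that of B2m also did with a minimum mean count of 100. Bonferroni adjustment left 6 members higher and 6 lower. Under DESeq2 size factors, posterior mean counts and a prior count of 5, all 31 members kept their direction and call. The median TPM of class I was 1.44 with posterior mean TPM, against 0.905, and the share of H2-K1 and H2-D1 was 73.0% in expected counts, against 72.2%. The causes of these shifts were not tested.

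Leaving out either library gave 29 to 31 members detected, summed TPM of 1595 to 1882 for class I, 2009 to 2085 for class II and 425 to 432 for processing, class medians of 0.580 to 1.23, 17.2 to 20.8 and 49.0 to 50.7 TPM, an immunoproteasome share of 19.0% to 21.2% and a share of H2-K1 and H2-D1 of 71.8% to 72.5%. The ratios have no value with 1 library. Depth limits the low genes most: the interval of H2-M5, on 36 and 16 counts, ran from -1.82 to 0.02. No paired analysis was possible because the design holds 1 group.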
